A study of Mus musculus with 9 samples.

Results

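Collagen and laminin genes were taken from the deposited table of group expression values by symbol, as every locus whose name begins with Col or Lam followed by a chain designation. The rule found 56 of 27095 loci. Among these, Col4a3bp encodes a ceramide transfer protein and no collagen chain, so it was left out of every count below. The remaining 55 genes comprised 44 collagens and 11 laminins. They were split into 11 fibrillar collagens, 19 basement membrane genes (collagen IV, the laminins and the multiplexins Col15a1 and Col18a1) and 25 other collagens.

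RNA-seq had been run on C57BL/6 (C57BL/6J in the methods) wild-type mouse fetuses of gestational day 17, with 3 fetuses in each of 3 groups. Control fetuses came from dams injected with lactated Ringer's solution on gestational day 7, and EtOH-exposed fetuses from dams injected on that day with 2.9 g/kg EtOH. Exposed fetuses were sorted by their ocular and craniofacial defects into an EtOH-exposed affected group and an EtOH-exposed unaffected group, so membership in these groups rests on phenotype and not on dose. By the labels the tissue was fetal brain, by the methods cortex, and neither the sex of these fetuses nor whether they came from separate litters is given. The values are FPKM (fragment numbers divided by transcript length and library size, so that levels of different genes can be compared), with 1 value per group and locus and none per fetus. No spread between animals could therefore be computed, no test was run, and every difference below is a description of 3 group values without a replicate check. The fragment totals behind the values are not known from the table, so no counting interval is given.

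Fibrillar collagens such as types I and III form the tensile fibres of connective tissue, and in the fetal brain they are made mainly by fibroblasts of the meninges. Collagen IV and the laminins polymerise into the sheets of basement membranes, which underlie the pial surface and surround blood vessels. Laminins are assembled from an alpha, a beta and a gamma chain, and collagen IV networks are linked to laminin by nidogens and by the proteoglycan perlecan.

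Checked against marker genes, the libraries held cortical RNA together with RNA from the choroid plexus, the meninges and vessels. The neuronal tubulin Tubb3 stood at 1809, 1807 and 1799 FPKM in the control, unaffected and affected groups. Neurod6, a transcription factor of cortical projection neurons, stood at 409, 378 and 416 FPKM. Other cortical markers differed more, such as Tbr1 at 75.7, 62.1 and 98.3 FPKM, and the list of 9 is counted below. In that order of groups, which is kept throughout, the summed level of the meningeal fibroblast markers was 96.7, 90.3 and 75.2 FPKM, that of the pericyte and smooth muscle markers 94.6, 97.4 and 90.9 FPKM, and that of the endothelial markers 132, 134 and 137 FPKM. The choroid plexus markers, of which Ttr makes up most, summed to 995, 1320 and 1112 FPKM, and their part in the results below was not tested. None of the 7 cartilage markers found and none of the 5 bone markers reached a mean of 1 FPKM, and the osteocalcin gene Bglap was at 0 in the control and unaffected groups.

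Of the 55 genes, 27 had a mean of at least 1 FPKM over the 3 groups, namely 7 fibrillar, 8 basement membrane and 12 other collagen genes. The other 28 had means between 0.0161 and 0.848 FPKM and are described by range. Col15a1 and Lama2, at means of 0.842 and 0.848 FPKM, lay just under that limit, and Col6a3 and Col25a1, at 1.251 and 1.40 FPKM, just over it.

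Col4a1 and Col4a2, which encode the chains of the collagen IV found in nearly all basement membranes, had the largest group values among the basement membrane genes and the widest differences between affected and unaffected tissue among all 27 genes. They lie head to head on chromosome 8, Col4a1 at chr8:11198423-11312826 and Col4a2 at chr8:11312829-11449287 in mm10, with 2 bp between the loci of the deposited table. The RefSeq start sites (GRCm38.p6) are 21 bases apart. Their promoter windows, from 250 bases before to 50 after each start site, share the 78 bases chr8:11312777-11312854. Both windows are shown because the pair is read from a common stretch of DNA in opposite directions, and Lamb1 and Col1a2 are shown as a laminin and a fibrillar collagen whose groups differed by different amounts. Capitals mark matches on either strand to the CCAAT box (CCAAT) and the GC box (GGGCGG), and lower case all other bases. The windows are Col4a1 chr8:11312777-11313076, minus strand, Col4a2 chr8:11312555-11312854, plus strand, Lamb1 chr12:31265043-31265342, plus strand, and Col1a2 chr6:4505368-4505667, plus strand, each read 5′ to 3′ along the gene.
Col4a1: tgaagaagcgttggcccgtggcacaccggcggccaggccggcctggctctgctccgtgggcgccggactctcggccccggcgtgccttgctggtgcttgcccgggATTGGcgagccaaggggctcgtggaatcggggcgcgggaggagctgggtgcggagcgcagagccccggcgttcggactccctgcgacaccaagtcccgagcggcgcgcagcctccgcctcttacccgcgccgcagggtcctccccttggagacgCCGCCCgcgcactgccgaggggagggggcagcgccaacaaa
Col4a2: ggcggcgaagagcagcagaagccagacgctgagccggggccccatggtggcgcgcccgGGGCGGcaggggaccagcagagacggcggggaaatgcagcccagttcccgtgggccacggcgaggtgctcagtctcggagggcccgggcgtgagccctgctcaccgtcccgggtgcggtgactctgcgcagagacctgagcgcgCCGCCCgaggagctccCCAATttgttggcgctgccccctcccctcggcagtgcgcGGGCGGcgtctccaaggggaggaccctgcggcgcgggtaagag
Lamb1: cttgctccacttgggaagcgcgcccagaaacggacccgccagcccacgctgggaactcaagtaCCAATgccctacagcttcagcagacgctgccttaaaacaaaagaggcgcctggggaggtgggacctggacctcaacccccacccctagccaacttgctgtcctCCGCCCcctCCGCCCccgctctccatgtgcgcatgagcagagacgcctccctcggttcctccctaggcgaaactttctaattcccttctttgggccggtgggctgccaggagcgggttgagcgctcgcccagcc
Col1a2: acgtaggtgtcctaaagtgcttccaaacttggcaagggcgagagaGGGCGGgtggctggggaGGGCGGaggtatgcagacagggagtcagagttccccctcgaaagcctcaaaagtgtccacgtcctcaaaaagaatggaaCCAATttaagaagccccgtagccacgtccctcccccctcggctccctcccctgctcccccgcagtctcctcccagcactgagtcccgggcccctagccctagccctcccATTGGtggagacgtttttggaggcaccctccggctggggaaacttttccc

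The Col4a1 window held 1 CCAAT box and 1 GC box, and the Col4a2 window 1 CCAAT box and 3 GC boxes. The GC box near the end of the Col4a1 window is the same stretch as the last one in the Col4a2 window, read from the other strand. The Lamb1 window held 1 CCAAT box and 2 GC boxes and the Col1a2 window 2 of each. No window held TATAAA, the TATA box searched. These windows were GC-rich, at 74%, 73.7%, 63.7% and 61% G and C for Col4a1, Col4a2, Lamb1 and Col1a2, beside a median of 52.7% over all promoter windows. RefSeq windows were found for 40 of the 55 genes, 44 windows in all. A GC box was present in 59.1% of these 44 windows and in 35.7% of all 32851 windows, a CCAAT box in 31.8% and 37.4%, and a TATA box in 11.4% and 13.6%. These are matches of letters and not sites of binding.

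**Figure D1:**
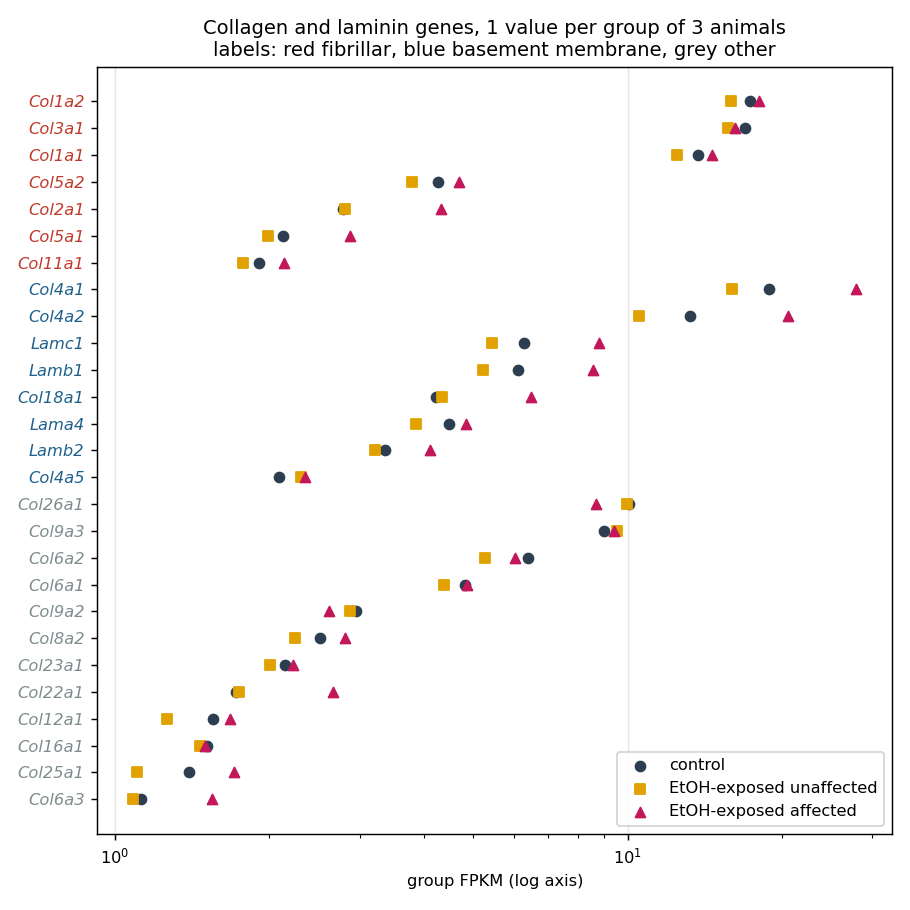
Group FPKM (log axis) of the 27 collagen and laminin genes with a mean of at least 1 FPKM, with circles for control, squares for EtOH-exposed unaffected and triangles for EtOH-exposed affected, 1 value per group of 3 fetuses. The triangles are rightmost for all 8 basement membrane genes (blue names), while the 3 group values of Col1a2, Col3a1 and Col1a1 at the top of the fibrillar genes (red names) lie close together.

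The basement membrane genes differed in level between the affected group and the other groups, in that all 8 with a mean of at least 1 FPKM were highest in the affected group, as were 44.9% of all loci at that limit and 77.6% of those with transcripts of at least 5000 nt. Col4a1 stood at 18.9 FPKM in control, 16.0 in unaffected and 27.9 in affected tissue. Col4a2 stood at 13.2, 10.5 and 20.5 FPKM. The affected level of Col4a1 was thus 1.48 times the control level and 1.75 times the unaffected level, and that of Col4a2 1.55 and 1.95 times. The unaffected group was the lowest for both chains, with log2 differences from control of -0.24 for Col4a1 and -0.33 for Col4a2 on the log2(FPKM + 0.1) scale used for all log2 differences here. In a bulk sample, more cells making a transcript and more of it per cell cannot be told apart.

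Lamb1 and Lamc1 encode the beta and gamma chains shared by most laminins of the brain surface and its vessels. Lamb1 (chr12:31265294-31330783) stood at 6.10, 5.23 and 8.57 FPKM. Lamc1 (chr1:153218922-153332786) stood at 6.27, 5.43 and 8.81 FPKM. The chains kept a nearly fixed proportion, with a ratio of Lamb1 to Lamc1 of 0.973, 0.964 and 0.973. Both had a log2 difference of 0.48 between affected and control, and between affected and unaffected it was 0.70 for Lamb1 and 0.69 for Lamc1.

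Lama4, the alpha chain of vascular laminin, did not follow its partners as far. It stood at 4.49, 3.86 and 4.84 FPKM, with a log2 difference of 0.11 between affected and control and of 0.32 between affected and unaffected, the latter just under the threshold used below. The ratio of Lamb1 to Lama4 was 1.36 in the control group, 1.35 in the unaffected group and 1.77 in the affected group. Lamb2, a beta chain of synaptic and vascular basement membranes, stood at 3.37, 3.21 and 4.11 FPKM. Its log2 difference between affected and control was 0.28.

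Col18a1, the multiplexin that carries the endostatin fragment at its end, stood at 4.22, 4.35 and 6.47 FPKM at chr10:77052179-77166530. Here the control and unaffected levels lay together (log2 difference 0.04) and the affected level apart, with log2 differences of 0.60 from control and 0.56 from unaffected tissue. Col4a5, a chain of the other collagen IV networks, stood at 2.09, 2.31 and 2.35 FPKM, and its exposed groups lay together. Its neighbour Col4a6, 1342 bp away on the X chromosome, had a low level of 0.481, 0.500 and 0.773 FPKM and a log2 difference between affected and control of 0.59, beside 0.16 for Col4a5.

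The 11 basement membrane genes below the limit had means between 0.0632 and 0.848 FPKM, and 9 of them were highest in the affected group. Of 6009 loci with a mean below 1 FPKM and a level above 0 in each group, 35.1% were highest there, and of the 635 among them with transcripts of at least 5000 nt, 52.4%. Lama1, an alpha chain of the pial basement membrane, stood at 0.518, 0.478 and 0.807 FPKM. Lama5, an alpha chain of vascular and epithelial basement membranes, stood at 0.325, 0.306 and 0.556 FPKM. Lamc3 stood at 0.656, 0.607 and 0.995 FPKM. These scarce chains showed the order seen for Lamb1 and Lamc1, whereas Lamb3, a chain of epithelial laminin, stood at 0.202, 0.170 and 0.137 FPKM and was lowest in the affected group.

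The fibrillar collagens of the meninges showed small differences by comparison. Col1a1 and Col1a2 encode the chains of type I collagen, and Col3a1 the chain of type III collagen that forms fibres with it. Col1a1 (chr11:94936260-94953041) stood at 13.7, 12.5 and 14.6 FPKM. Col1a2 (chr6:4505697-4541543) stood at 17.3, 15.9 and 18.0 FPKM. Col3a1 (chr1:45311538-45349706) stood at 16.9, 15.7 and 16.2 FPKM. The affected and control levels of these genes lay close together, with log2 differences of 0.09, 0.06 and -0.06, and the unaffected level was the lowest for each. The ratio of Col1a1 to Col1a2 was 0.793, 0.785 and 0.810 in the 3 groups. Together these genes made up 80.5%, 80.2% and 77.0% of the summed fibrillar level.

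Among the minor fibrillar chains, Col5a2, which joins type I fibres, stood at 4.26, 3.80 and 4.69 FPKM, and its partner Col5a1 at 2.13, 1.99 and 2.87 FPKM. The Col5a1 level was higher in the affected group than in control by 0.41 on the log2 scale and the Col5a2 level by 0.14. Col11a1, a regulator of thin fibres, stood at 1.91, 1.77 and 2.14 FPKM, with a log2 difference of 0.15. Col2a1, the main collagen of cartilage, had the largest fibrillar difference and stood at 2.78, 2.81 and 4.32 FPKM, a log2 difference of 0.61 from control and 0.60 from unaffected tissue. The cartilage markers did not show this order. Their summed level was 1.63, 1.71 and 1.41 FPKM, and that of Acan, the cartilage proteoglycan, 0.0666, 0.0459 and 0.0540 FPKM. The remaining 4 fibrillar genes, Col5a3, Col11a2, Col24a1 and Col27a1, had means between 0.0227 and 0.223 FPKM.

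**Figure D2:**
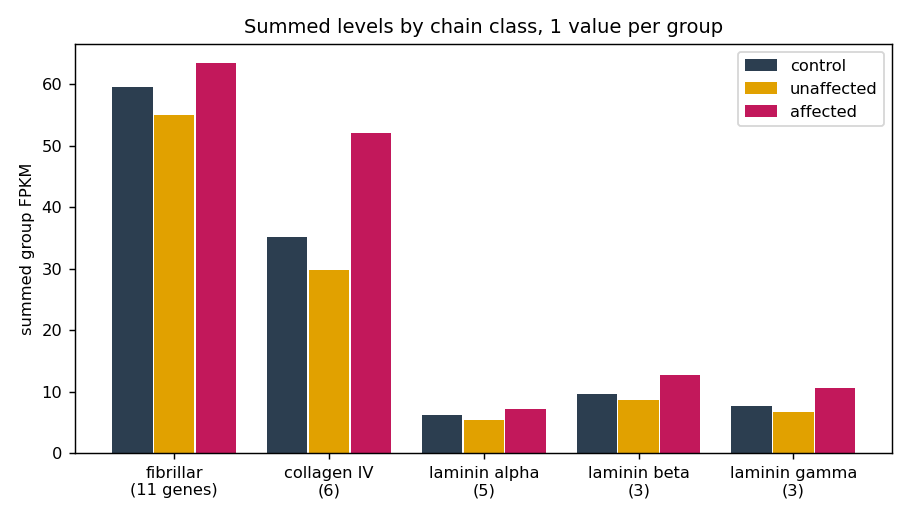
Summed group FPKM of the fibrillar collagens and of the chain classes of basement membranes, all members included whatever their level, with bars for control, unaffected and affected groups from left to right and the vertical axis starting at 0. The collagen IV bars stand at 35.2, 29.7 and 52.1 FPKM, while the fibrillar bars stand at 59.6, 55.0 and 63.4 FPKM.

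Summed over all chains, the basement membrane genes stood at 63.8, 55.7 and 90.2 FPKM and the fibrillar genes at 59.6, 55.0 and 63.4 FPKM. The summed level of basement membrane genes was thus 1.07 times that of fibrillar genes in control, 1.01 times in unaffected and 1.42 times in affected tissue. Col4a1 and Col4a2 contributed 50.4%, 47.6% and 53.7% of the basement membrane sum. The laminin beta chains summed to 9.67, 8.61 and 12.8 FPKM and the gamma chains to 7.67, 6.75 and 10.6 FPKM. The alpha chains summed to 6.23, 5.45 and 7.24 FPKM, so that the alpha sum differed less between affected and control (log2 0.22) than the beta sum (0.41) and the gamma sum (0.47).

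The other collagens differed less. In the affected group 8 of 12 were above control, beside 52.9% of all loci and 81.3% of loci with transcripts of at least 5000 nt. In the unaffected group 10 of 12 were below control, beside 48.3% and 75.8%. The chains of collagen VI, a beaded filament around cells, stood at 4.82, 4.39 and 4.86 FPKM for Col6a1 and at 6.40, 5.27 and 6.02 FPKM for Col6a2. The third chain, Col6a3, stood at 1.12, 1.08 and 1.55 FPKM. Col6a3 was therefore higher in the affected group by 0.43 on the log2 scale, while Col6a1 and Col6a2 had log2 differences from control of 0.01 and -0.09. Col12a1, a collagen that decorates the surface of fibres, stood at 1.55, 1.26 and 1.68 FPKM, and Col16a1, of the same class, at 1.51, 1.46 and 1.495 FPKM. Col22a1, a collagen of tissue junctions, stood at 1.72, 1.74 and 2.66 FPKM and had a log2 difference of 0.60 from control. Its control and unaffected levels lay together, as did those of Col18a1 and Col2a1.

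Col9a3, a chain of the collagen that coats type II fibres, stood at 8.99, 9.51 and 9.39 FPKM, and its partner Col9a2 at 2.95, 2.87 and 2.62 FPKM. Neither showed the higher affected level seen for Col2a1. Col26a1 stood at 10.04, 9.97 and 8.68 FPKM. Of the 27 genes, only Col9a2 and Col26a1 had their lowest level in the affected group. Col8a2, a network collagen, stood at 2.51, 2.25 and 2.81 FPKM. The transmembrane collagens Col23a1 and Col25a1 stood at 2.14, 2.01 and 2.22 FPKM and at 1.39, 1.10 and 1.70 FPKM. The gene left out of the counts, Col4a3bp, stood at 6.16, 5.76 and 6.42 FPKM.

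**Figure D3:**
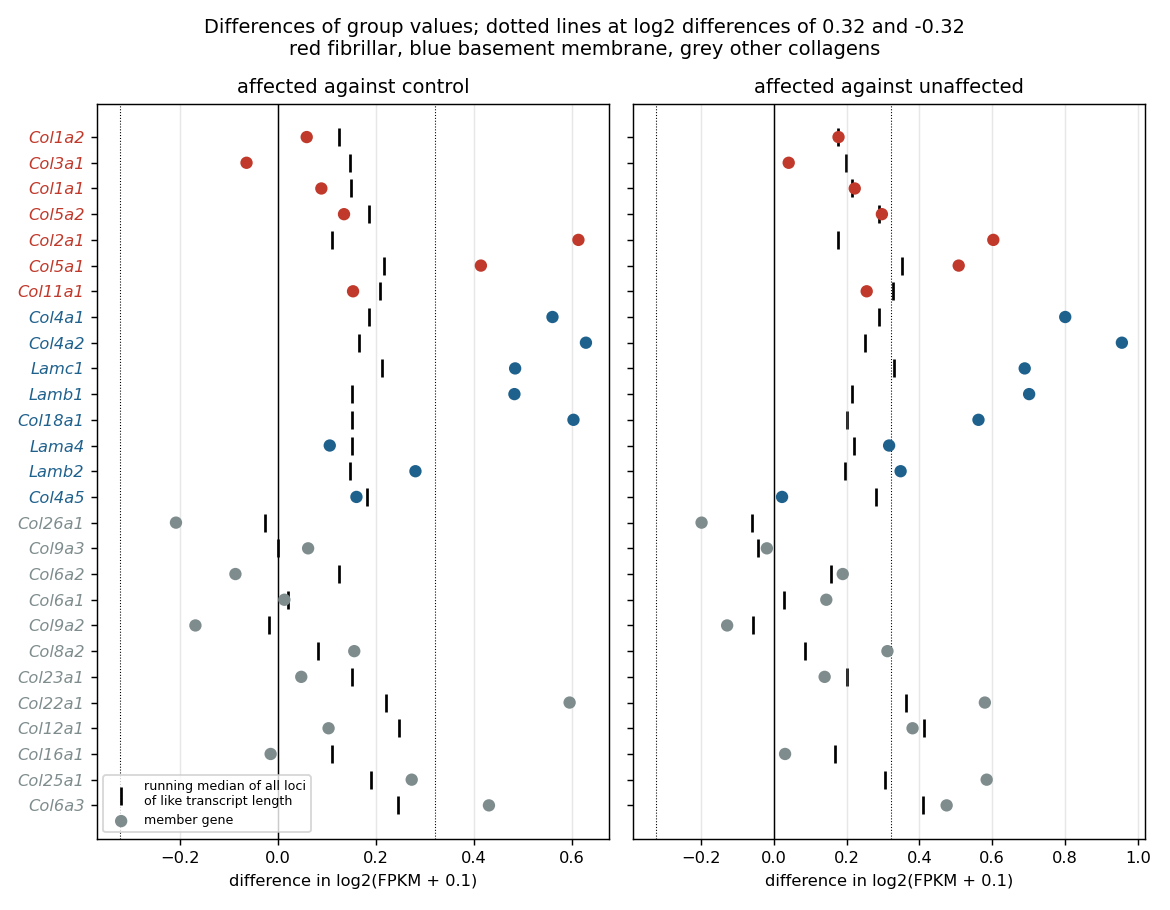
Difference in log2(FPKM + 0.1) between affected and control (left) and between affected and unaffected (right) for each of the 27 genes, with dots coloured red for fibrillar, blue for basement membrane and grey for other collagens. Black ticks are the running median of all loci of like transcript length, and dotted lines mark log2 differences of 0.32 in either direction. Col1a1, Col1a2 and Col3a1 lie at their ticks or left of them, and Col4a1, Col4a2, Lamb1, Lamc1 and Col18a1 lie to the right of theirs in both panels.

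To read the members against the whole table, a difference was counted where it was past 0.32 on the log2 scale, a level higher by about 25%. This threshold is a size and not a test. Between affected and control, 9 of 27 genes were higher in the affected group and 0 lower. Among all 15548 loci with a mean of at least 1 FPKM, 12.1% were higher and 11.3% lower past this size, 23.4% in either direction. The 9 genes were Col4a1, Col4a2, Lamb1, Lamc1, Col18a1, Col2a1, Col5a1, Col6a3 and Col22a1. By class, these were 5 of 8 basement membrane genes, 2 of 7 fibrillar genes and 2 of 12 other collagens.

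Between affected and unaffected, 12 of 27 genes were higher past 0.32 and 0 lower, beside 20.3% higher, 18.1% lower and 38.4% in either direction over all loci. The additional genes were Lamb2, Col12a1 and Col25a1. Between unaffected and control, Col4a2 was lower past this size and no gene was higher, beside 6.8% lower, 5.45% higher and 12.3% in either direction. The 3 comparisons share their groups, so that a low unaffected value enters 2 of them. Without regard to size, the affected group was the highest of the 3 for 21 of 27 genes, beside 44.9% of all loci and 77.6% of loci with transcripts of at least 5000 nt. The unaffected group was the lowest for 20 of 27, beside 38.6% and 71.2%. Of the 21 genes with transcripts of at least 5000 nt, the affected group was the highest for 19 and the unaffected group the lowest for 17.

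The median log2 difference between affected and control was 0.48 over the 8 basement membrane genes, 0.14 over the 7 fibrillar genes and 0.05 over the 12 other collagens, beside 0.02 over all loci. Between affected and unaffected it was 0.63, 0.26 and 0.17, beside 0.01. Between unaffected and control it was -0.21, -0.11 and -0.07, beside 0.01. The basement membrane median was thus the furthest from the median of all loci in each comparison, and no test of the difference between the classes was possible with 1 value per group.

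**Figure D4:**
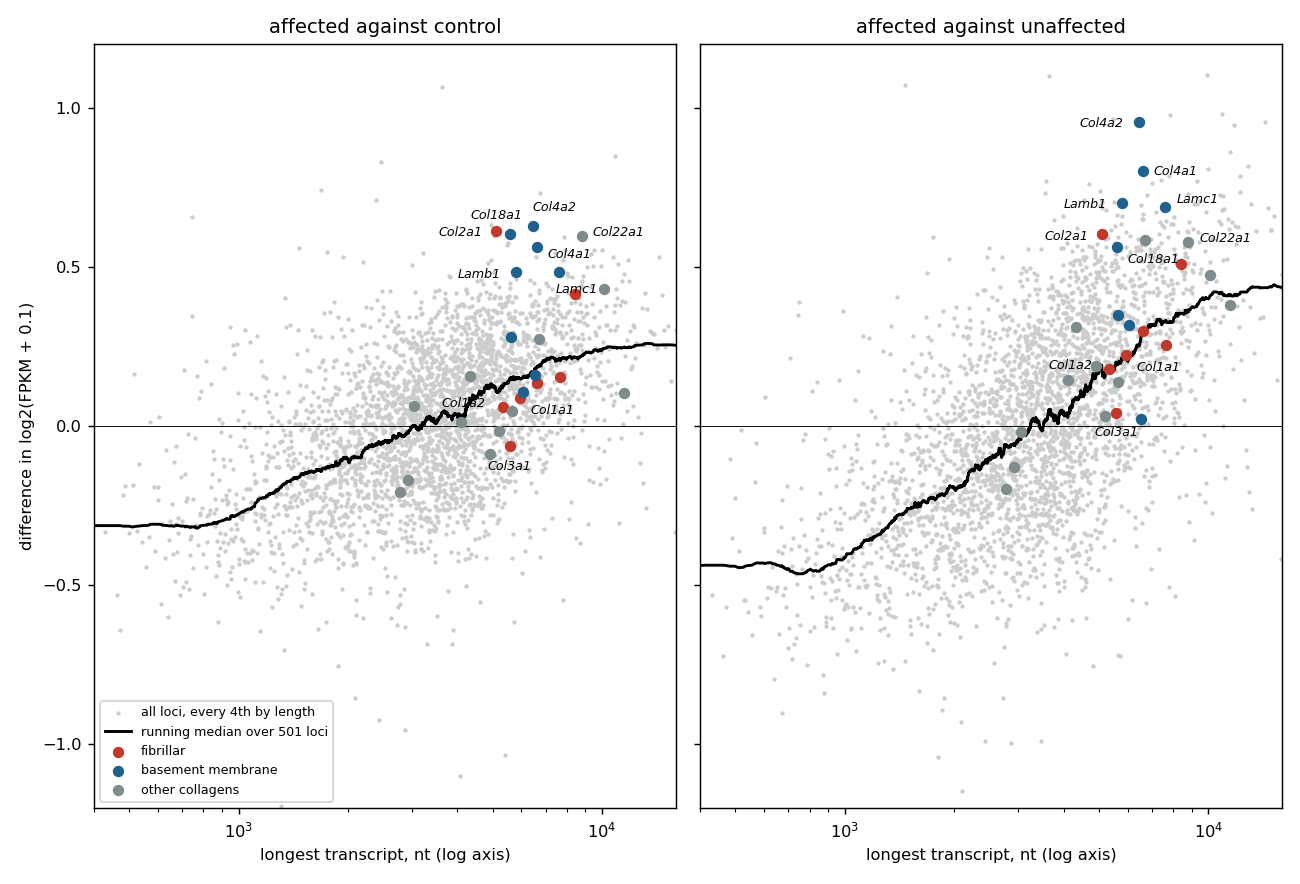
Difference in log2(FPKM + 0.1) against the length of the longest annotated transcript (log axis) for all loci with a mean of at least 1 FPKM (grey, every 4th by length, within the axis limits) and for the 27 genes (coloured), with affected against control on the left and affected against unaffected on the right. The black line, a running median of loci ordered by length, climbs with length, and Col4a1, Col4a2, Lamb1 and Lamc1 lie above it while Col1a1, Col1a2 and Col3a1 lie near or below it.

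The differences were related to transcript length over the whole table, and collagens and laminins have long transcripts. The median longest transcript was 5784 nt for the 27 genes and 3432 nt for all loci. The median log2 difference between affected and control was -0.19 over 2515 loci with transcripts of up to 1962 nt and 0.19 over 2512 loci with transcripts of at least 5362 nt. Between affected and unaffected these medians were -0.30 and 0.30. Among the 2962 loci with transcripts of at least 5000 nt, 21.2% were higher past 0.32 in the affected group than in control and 43.1% higher than in the unaffected group, with 4.32% lower in the unaffected group than in control. Of the 21 genes of at least this length, 9 and 12 were higher in the affected group in these comparisons.

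After the running median of loci of like length was subtracted, the fibrillar median lay near 0 and the basement membrane median above it. The fibrillar median was -0.06 between affected and control and 0.01 between affected and unaffected, whereas the basement membrane median was 0.30 and 0.36. Col4a1 kept differences of 0.38 and 0.51, and Col4a2 of 0.46 and 0.70. The number of genes past 0.32 between affected and control was 6, and between affected and unaffected it was also 6, in place of 9 and 12. The shares of the 12559 loci with a known length that were higher past 0.32 in the same way were 4.18% and 9.75%. In the first comparison the genes were Col4a1, Col4a2, Lamb1, Col18a1, Col2a1 and Col22a1, so that 4 basement membrane genes were past the threshold in place of 5, with Lamc1 at 0.27. In the second comparison they were Col4a1, Col4a2, Lamb1, Lamc1, Col18a1 and Col2a1. Col4a2 was no longer past the threshold between unaffected and control.

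**Figure D5:**
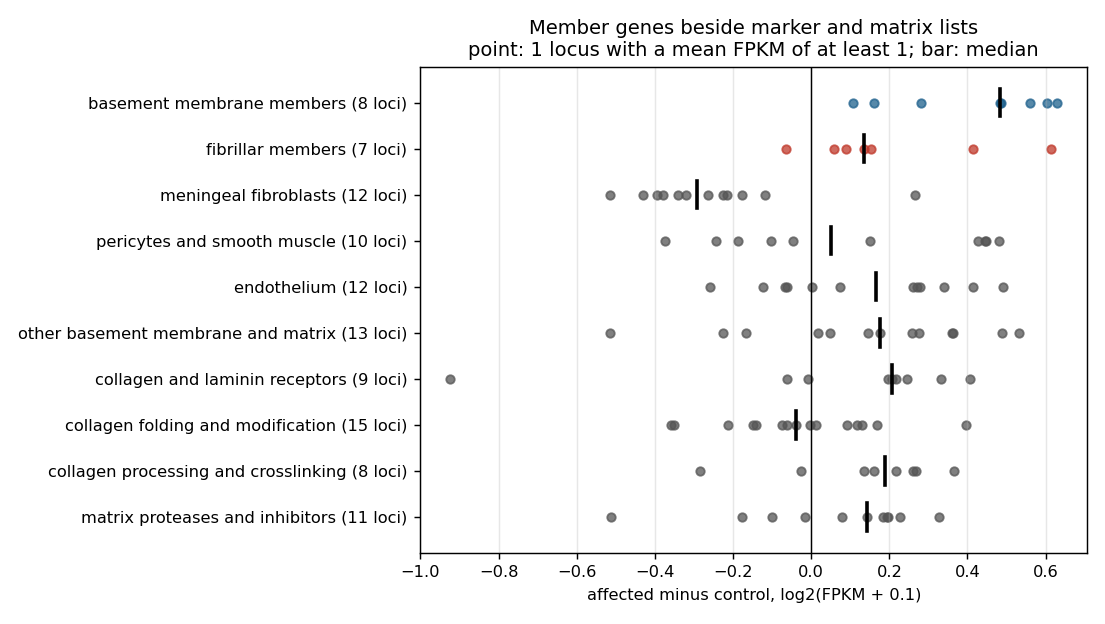
Log2 difference between affected and control for each locus with a mean of at least 1 FPKM in the basement membrane and fibrillar members and in the marker and matrix lists, with a bar at each median. The meningeal fibroblast markers lie mainly below 0 (11 of 12), while all 8 basement membrane members lie above 0.

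Markers of the cells that make these proteins were set beside them, and their part in the results was not tested. Of 12 meningeal fibroblast markers with a mean of at least 1 FPKM, 11 were lower in the affected group than in control, 5 of them past 0.32, with a median log2 difference of -0.29. Over all loci, 47.0% were lower in this comparison. The counts past 0.32 for this and the following lists stand beside 12.1% higher and 11.3% lower over all loci, and beside 4.18% and 6.57% with the length median subtracted. For affected against unaffected these shares were 20.3% higher and 18.1% lower, and 9.75% and 10.5% with the length median subtracted. The lower markers included the transporter gene Slc6a13 at 8.36, 7.89 and 6.18 FPKM and the proteoglycan gene Dcn at 31.6, 28.1 and 22.1 FPKM. Col1a1, Col1a2 and Col3a1 did not share this order of groups. These markers have a median longest transcript of 2335 nt, and with the length median subtracted their median difference was -0.22 and 4 were lower past 0.32. Islr and Crabp2 were then no longer past it, and Foxd1 was. Between affected and unaffected, 4 of the 12 were lower past 0.32 with a median of -0.16, and 1 with a median of -0.058 after subtraction, beside 10.5% of all loci.

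Endothelial markers showed both directions, with 3 of 12 higher past 0.32, 0 lower and a median of 0.17, or 2 higher and 0.087 with the length median subtracted. Against the unaffected group, 5 were higher and 1 lower with a median of 0.18, or 3 and 0 with 0.15 after subtraction. The tight junction gene Cldn5 stood at 36.9, 38.4 and 33.9 FPKM and the receptor gene Kdr at 5.02, 4.76 and 7.09 FPKM. Of 10 pericyte and smooth muscle markers, 4 were higher and 1 lower past 0.32, with a median of 0.05. With the length median subtracted, 0 were higher and 1 lower past it, with a median of 0.15. In affected against unaffected tissue, 5 were higher and 1 lower with a median of 0.17, or 3 and 1 with 0.18 after subtraction. Rgs5, the most abundant, stood at 30.9, 32.6 and 27.1 FPKM, and Pdgfrb, the receptor that recruits pericytes, at 4.19, 4.02 and 5.75 FPKM. The order of groups seen for Col4a1 and Col4a2 was thus present in Kdr and Pdgfrb and absent in Cldn5 and Rgs5. Of the 6 skeletal muscle markers, 2 reached 1 FPKM, and their summed level was 5.09, 5.91 and 4.55 FPKM. Of 9 cortical neuron and progenitor markers, 5 were higher and 0 lower past 0.32 between affected and control, with a median of 0.33. With the length median subtracted, 2 were higher and 0 lower, with a median of 0.19. Against the unaffected group, 4 were higher and 0 lower both before and after subtraction, with medians of 0.30 and 0.31. The affected group was highest for 6 of the 9, beside 44.9% of all loci, and the unaffected group lowest for 5, beside 38.6%.

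Other genes of basement membranes and of the wider matrix, counted as 1 list, showed the order of groups of Col4a1 and Col4a2 in part. The list includes Dcn and Lum, which are also among the meningeal fibroblast markers. Of its 13 genes, 10 were highest in the affected group, beside 44.9% of all loci, and 9 lowest in the unaffected group, beside 38.6%. Between affected and control, 4 were higher and 1 lower past 0.32, with a median of 0.18. With the length median subtracted, 1 (Nid2) was higher and 1 (Dcn) lower past it, with a median of 0.10. Between affected and unaffected, 6 were higher and 2 lower with a median of 0.32, or 5 and 1 with 0.099 after subtraction. The nidogen genes, whose products link laminin to collagen IV, stood at 7.80, 6.70 and 10.05 FPKM for Nid1 and at 4.94, 4.70 and 7.18 FPKM for Nid2. Fn1, encoding fibronectin, stood at 11.1, 9.76 and 15.7 FPKM. The gene of perlecan, Hspg2, stood just under the limit at 0.900, 0.683 and 1.37 FPKM. Sparc, a collagen-binding glycoprotein and the most abundant of this list, stood at 148, 158 and 132 FPKM and was lowest in the affected group.

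Of 9 loci of collagen and laminin receptors, 2 were higher and 1 lower past 0.32, with a median of 0.21. With the length median subtracted, 0 were higher and 1 lower past it, with a median of 0.074. Against the unaffected group, 2 were higher and 1 lower with a median of 0.19, or 1 and 1 with 0.058 after subtraction. Dag1, encoding the laminin receptor dystroglycan, stood at 25.1, 23.1 and 33.4 FPKM, and Itgb1, the common integrin beta chain, at 44.7, 47.0 and 42.8 FPKM. The collagen receptor gene Ddr1 stood at 30.6, 31.9 and 38.6 FPKM. Bcam, a laminin receptor, is listed at 2 loci, which had log2 differences of -0.92 and 0.21.

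Genes of the machinery that folds collagen in the endoplasmic reticulum had no common order of groups. Of 15 such genes, 5 were highest in the affected group, beside 44.9% of all loci. Past 0.32 between affected and control, 1 was higher and 2 lower, with a median of -0.04, or the same counts and 0.012 with the length median subtracted. Against the unaffected group, 1 was higher and 4 lower with a median of -0.13, or 3 and 1 with -0.064 after subtraction. The prolyl hydroxylase subunit P4hb stood at 155, 174 and 134 FPKM, and the cyclophilin Ppib at 122, 131 and 95.7 FPKM. P4ha3, a catalytic subunit of prolyl hydroxylase, stood at 3.30, 3.53 and 4.38 FPKM. Both P4hb and Ppib were highest in the unaffected group, where Col4a1 and Col4a2 were lowest.

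Among 8 genes of procollagen processing and crosslinking, 1 was higher and 0 lower past 0.32, with a median of 0.19, or the same counts and 0.051 with the length median subtracted. In affected against unaffected tissue, 3 were higher and 0 lower with a median of 0.22, or 2 and 0 with 0.082 after subtraction. Bmp1, the protease that removes the carboxyl propeptide, stood at 10.9, 10.4 and 12.7 FPKM. Adamts3, a procollagen aminopropeptidase, stood at 5.86, 5.12 and 7.58 FPKM. Pcolce, an enhancer of Bmp1, stood at 6.10, 5.11 and 4.99 FPKM. Bmp1 and Adamts3 thus had the order of groups seen for Col4a1, and Pcolce did not. Of 11 matrix proteases and their inhibitors, 1 was higher and 1 lower, with a median of 0.14, or 0 higher, 1 lower and 0.12 with the length median subtracted. Against the unaffected group, 1 was higher and 1 lower with a median of 0.20, or 1 and 2 with 0.21 after subtraction. Timp2, the most abundant of these, stood at 52.4, 48.0 and 57.9 FPKM, and Ctsk, a collagen-degrading protease, at 3.18, 3.45 and 2.196 FPKM.

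Several members besides Col4a1 and Col4a2 are neighbours in the genome, and their differences between affected and control can be set side by side. Col3a1 and Col5a2, 24624 bp apart on chromosome 1, had differences of -0.06 and 0.14. Col6a2 and Col6a1, 85387 bp apart on chromosome 10, had differences of -0.09 and 0.01.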

How the data were processed

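RNA-seq was performed by the authors on 3 groups of 3 fetuses with a TruSeq RNA kit. The methods name STAR and also Bowtie with TopHat for alignment to mm10. The submitters' processing notes list Bowtie2 2.2.4.0 and, without versions, Cufflinks and Cuffdiff. The authors deposited FPKM as 1 value per group and locus for 27095 loci, and 0 columns hold values of single animals. Columns of the authors' own comparisons (fold changes, test statistics, p-values and q-values) were not used.

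Log2 differences were computed on log2(FPKM + 0.1), which understates differences of low genes, for 15548 loci with a mean of at least 1 FPKM (Python 3.11.15, numpy 2.4.6, pandas 2.3.3). The length of the longest GENCODE M21 transcript was found for 12559 of these loci (80.8%), and a running median over 501 loci gave the length background. Members with a mean of at least 1 FPKM are named. Of other lists, the most abundant gene and genes with large differences between affected and control are named, and others where a comparison needed them. Members and lists were chosen with earlier results of these data known. A few genes that these rules would name are not reported here.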

Additional observations from a re-analysis of the deposited data

How the results depend on the processing

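Of 81 alternatives, 54 left a median within 0.1 on the log2 scale or a count within 1.5 times, 26 moved it and 1 reversed it. With the length trend subtracted, the fibrillar median between affected and control reversed to -0.055 and that between affected and unaffected moved to 0.0072. The basement membrane medians moved to 0.30 and 0.36, and the counts past 0.32 on the log2 scale between affected and unaffected and between unaffected and control to 6 and 0. Without a limit on FPKM, the basement membrane medians were 0.28 (affected against control), 0.45 (affected against unaffected) and -0.098 (unaffected against control), and the counts 14, 23 and 5 of 55 genes. These were 13 higher and 1 lower (Lamb3), 23 higher and 0 lower, and 1 higher and 4 lower, beside 13% and 12.5%, 19.5% and 17.8%, and 7.37% and 8.25% of 21464 loci. With a mean of at least 5 FPKM, 5 genes of 11 passed in each comparison of the affected group. At 1.5-fold, 4, 5 and 0 genes passed in the 3 comparisons in that order, and at 2-fold 0, 0 and 0. The count between unaffected and control was 2 without a pseudocount and 0 with a pseudocount of 1. Shares of all loci are not given for the limit of 5 FPKM, these folds or these pseudocounts. Whether these counts exceed such shares therefore cannot be read here.

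Without Col15a1 and Col18a1, the basement membrane medians stayed within 0.1. The following 2 removals, and the background of transcripts of at least 5000 nt, were chosen after seeing the data. Without Col4a1 and Col4a2, the basement membrane medians were 0.38 (affected against control) and 0.46 (affected against unaffected), and the count between unaffected and control was 0. Without Col1a1, Col1a2 and Col3a1, the fibrillar medians were 0.28 and 0.40. No paired analysis was possible because the table gives 1 value per group, and for the same reason no animal could be left out. Depth per library is not given, which limits what can be said of genes below 1 FPKM.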

Other observations

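Choroid plexus markers were present in all groups. All 7 with a mean of at least 1 FPKM lay above control in the affected group, as did 52.9% of all loci, and 3 of the 7 were higher by more than 0.32 on the log2 scale, beside 12.1% of all loci. All 7 also lay above control in the unaffected group, as did 51.6% of all loci, with a median log2 difference of 0.26 beside 0.25 in the affected group, and 4 of the 7 were lower in the affected than in the unaffected group, beside 48.7% of all loci. Their median longest transcript was 1437 nt. With the length median subtracted, the medians were 0.37 (affected against control), 0.19 (unaffected against control) and 0.22 (affected against unaffected). Then 4 of the 7 were higher past 0.32 in the affected group than in control and 3 higher than in the unaffected group, beside 4.18% and 9.75% of loci. Ttr, encoding transthyretin, stood at 970, 1291 and 1077 FPKM in the control, unaffected and affected groups. The keratin genes Krt8 and Krt18 stood at 1.23, 1.44 and 2.67 FPKM and at 2.41, 2.98 and 5.23 FPKM, and Clic6 at 4.48, 5.36 and 8.31 FPKM.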
